A study of Mus musculus with 10 samples.

Results

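Described here are 10 genes for transcription regulators by which spermatogonial stem cells (SSCs) and their undifferentiated progeny are known, Zbtb16, Sall4, Sall1, Foxo1, Sox3, Id4, Etv5, Bcl6b, Lhx1 and Pou3f1. They were chosen by name and were found as 10 of the 28125 genes of a single-nucleus RNA matrix and 10 of the 30670 genes of a matching chromatin matrix from mouse testis. Each matrix holds 1 pooled value per gene for each of 13 cell populations. Nuclei were profiled with paired scRNA-seq and scATAC-seq, an assay in which a transposase cuts open chromatin, in 1 library per assay from wild-type mice at 11, 17 and 25 days post partum (dpp) and from Cre/+ and Nfya-CKO mice at 8 weeks. Nfya-CKO mice carry 2 floxed Nfya alleles and Stra8-Cre, which deletes exons 5 to 6 of Nfya once Stra8 is expressed in spermatogonia (SpG), whereas Cre/+ mice carry Stra8-Cre alone and the wild-type mice carry neither. NFYA is, with NFYB and NFYC, a subunit of NF-Y, a factor that binds the CCAAT box. In the testis Stra8 is expressed by undifferentiated as well as differentiating SpG.

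SSCs are the undifferentiated SpG that renew themselves and feed sperm production throughout life. Zbtb16 (PLZF) and the SALL proteins are zinc-finger regulators that hold SpG in the undifferentiated state. FOXO1 is a forkhead factor that is restrained by PI3K-AKT signalling and is needed for SSC maintenance. SOX3 is an HMG-box factor of early SpG, and ID4 is a helix-loop-helix protein without a DNA-binding domain that blocks other helix-loop-helix factors. GDNF from Sertoli cells, the somatic nurse cells of the tubule, signals through RET and GFRA1 on SpG and raises Etv5, Bcl6b, Lhx1 and Pou3f1, which encode an ETS factor, a BTB zinc-finger repressor, a LIM homeodomain factor and a POU factor.

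In GRCm38 with GENCODE vM21, all are protein-coding genes. Zbtb16 lies at chr9:48654297-48836222, Sall4 at chr2:168748332-168767943, Sall1 at chr8:89027235-89044162, Foxo1 at chr3:52268336-52353221, Sox3 at chrX:60891366-60893430, Id4 at chr13:48261228-48266026, Etv5 at chr16:22381309-22439719, Bcl6b at chr11:70224128-70229798, Lhx1 at chr11:84518284-84525535 and Pou3f1 at chr4:124656807-124660655.

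Promoter windows, from 250 bases before to 50 bases after a transcription start, from RefSeq (GRCm38.p6) were matched in the table used here for 5 of the 10 genes, Foxo1, Etv5, Id4, Lhx1 and Sall1, in 8 windows. Zbtb16, Sall4, Sox3, Bcl6b and Pou3f1 were not matched in it. The windows were searched for the 5 letters of the NF-Y box, CCAAT, on both strands (ATTGG on the gene's own strand is a match on the other), because NF-Y is the factor targeted in the Nfya-CKO mice. The letters were in 6 of these 8 windows, against 37.4% of all 32851 windows in the table, and in at least 1 window of each of the 5 genes, against 41.6% of 17671 genes. Windows with 3 or more matches made up 3.37% of the table. The window of each gene with the most matches is shown 5′ to 3′ on the gene's strand, with the matches in capitals, for Foxo1 (chr3:52268087-52268386, plus strand), Etv5 (chr16:22439521-22439820, minus), Id4 (chr13:48260866-48261165, plus), Lhx1 (chr11:84525485-84525784, minus) and Sall1 (chr8:89044113-89044412, minus).
Foxo1: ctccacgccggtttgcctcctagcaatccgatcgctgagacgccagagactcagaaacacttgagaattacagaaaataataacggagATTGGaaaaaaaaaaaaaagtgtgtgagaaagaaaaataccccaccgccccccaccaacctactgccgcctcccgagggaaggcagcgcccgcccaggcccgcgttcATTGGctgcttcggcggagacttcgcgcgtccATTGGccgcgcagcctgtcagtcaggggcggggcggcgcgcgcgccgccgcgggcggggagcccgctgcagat
Etv5: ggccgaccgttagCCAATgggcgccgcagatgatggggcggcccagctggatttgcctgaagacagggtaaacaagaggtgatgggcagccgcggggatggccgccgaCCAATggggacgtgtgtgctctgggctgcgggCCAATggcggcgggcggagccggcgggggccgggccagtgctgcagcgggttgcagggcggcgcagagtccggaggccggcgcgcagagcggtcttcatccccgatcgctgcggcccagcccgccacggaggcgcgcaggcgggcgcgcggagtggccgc
Id4: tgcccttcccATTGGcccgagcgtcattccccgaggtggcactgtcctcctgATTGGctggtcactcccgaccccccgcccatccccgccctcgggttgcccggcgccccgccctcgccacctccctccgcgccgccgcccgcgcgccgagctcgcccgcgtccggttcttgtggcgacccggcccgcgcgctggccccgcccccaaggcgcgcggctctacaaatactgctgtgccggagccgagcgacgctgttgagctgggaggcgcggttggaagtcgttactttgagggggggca
Lhx1: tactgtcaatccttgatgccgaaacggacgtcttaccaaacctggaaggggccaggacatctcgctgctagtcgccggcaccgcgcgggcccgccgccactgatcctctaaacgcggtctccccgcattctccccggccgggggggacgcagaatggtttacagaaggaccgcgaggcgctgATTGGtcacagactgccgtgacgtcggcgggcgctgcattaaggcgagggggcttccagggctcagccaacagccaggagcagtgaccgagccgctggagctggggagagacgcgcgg
Sall1: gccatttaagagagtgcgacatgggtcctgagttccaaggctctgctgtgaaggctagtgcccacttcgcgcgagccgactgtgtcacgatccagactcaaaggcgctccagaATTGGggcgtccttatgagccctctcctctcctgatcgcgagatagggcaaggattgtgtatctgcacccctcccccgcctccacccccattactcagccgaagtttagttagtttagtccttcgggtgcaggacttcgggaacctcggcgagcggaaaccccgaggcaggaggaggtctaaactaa
The matches began 162, 55 and 23 bases before the start of Foxo1. In Etv5 they began 237, 142 and 110 bases before the start, and a second Etv5 window held 1. The matches of Id4 lay 240 and 198 bases before its start, that of Lhx1 68 bases and that of Sall1 137 bases, and 2 other windows of Sall1 held none. A match is a run of letters and does not show that NF-Y binds there.

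RNA values are given as mean unique molecules (UMIs) per 10000 UMIs of a nucleus, averaged over the nuclei of a population. Control undifferentiated SpG were 1292 nuclei with a median of 9290 UMIs, differentiating SpG 927 nuclei with 6188 UMIs, and the SpG of the library labelled Nfya-CKO (CKO SpG) 491 nuclei with 18361 UMIs. The 3 populations differ in age and library as well as in state. Wild-type juveniles gave 92.0% of the undifferentiated SpG and the 8-week Cre/+ library gave 84.5% of the differentiating SpG, whereas all CKO SpG came from the library labelled Nfya-CKO at 8 weeks. Age, library and genotype cannot be told apart in a comparison of CKO SpG with control undifferentiated SpG. With 1 library per condition and 1 value per population there is no replicate error, no test was possible, and neither the neighbours in an order of levels nor the members of a comparison can be called different beyond a spread. A mean over a population also does not tell fewer expressing nuclei from less RNA per nucleus. Values are therefore described by size, as at least 2-fold for RNA with 0.1 added to both sides, and read against the share of all tested genes past the same size. The level that 3 UMIs would give in nuclei of median depth was 0.00250 in undifferentiated, 0.00523 in differentiating and 0.00333 in CKO SpG, and every value of the 10 genes in these 3 populations was above it.

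Libraries shared nuclear barcodes. Of the 5152 scRNA nuclei of the library labelled Nfya-CKO, 3813 carried a barcode number that the Cre/+ library also held, and the 3 wild-type libraries shared 621 to 853 barcodes per pair, whereas any wild-type library shared at most 19 with either 8-week library. Among differentiating SpG of Cre/+, 143 nuclei had the barcode of a CKO spermatogonium, and each was the shallower of its pair, with a median of 2378 UMIs against 21876 UMIs. These nuclei were 15.4% of all differentiating SpG. In all, 454 of the 925 differentiating SpG with a library name shared a barcode. Of the pairings, 305 were with nuclei of the somatic population soma_CKO (median 834 against 11954 UMIs), and in none was the differentiating nucleus the shallower. Of the 491 CKO SpG, 175 shared a barcode with a nucleus of another library, and none was the shallower one. The matrices hold populations and not nuclei, so the shared nuclei could not be left out. In their place, a second value is given after taking away the amount that 143 nuclei with the mean CKO profile would bring. It covers the RNA counts of members to or from differentiating SpG and the ratios of Zbtb16 and Etv5, which moved most. This step was chosen after seeing the data. Of the 1291 undifferentiated SpG with a library name, 420 shared a barcode, mostly with shallow leptotene-zygotene nuclei (median 701 UMIs). In scATAC, 12 differentiating nuclei shared a barcode with a CKO spermatogonium.

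The targeted gene was not lower at the RNA level. Nfya RNA was at 1.11 UMIs per 10000 in CKO SpG, 0.456 in undifferentiated and 0.667 in differentiating SpG. The values sum all reads of a gene and do not show whether exons 5 to 6 were present, so they do not check the deletion. The study reports from western blots and immunohistochemistry that NFYA protein was depleted in germ cells of Nfya-CKO testes. No nucleus of this library was named as a preleptotene, pachytene, round spermatid or elongating spermatid population, and 4 each were named in the earlier leptotene-zygotene and the diplotene population. Nfyb was at 0.971 in CKO SpG against 0.639 in undifferentiated SpG, and Nfyc at 1.43 against 1.17. Every statement on CKO SpG below is about the SpG of the library labelled Nfya-CKO.

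Across the 13 populations, 7 of the 10 genes had their highest RNA level in control undifferentiated SpG. Of the 9 genes whose mean over the 13 populations reached 0.05, 6 did so, against 8.47% of the 15250 genes tested, and Lhx1, at a mean of 0.0465, was below that filter. Within the 9 control germ cell populations undifferentiated SpG were the highest for all genes but Id4, as they were for 19.2% of the genes tested. Id4, Etv5 and Bcl6b were the exceptions over the 13 populations. The name of the set thus describes 7 of its members by their highest level, and Id4 least. The members were chosen by name for this state, and the authors named populations by marker genes. These counts may therefore be set in part beforehand.

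**Figure D1:**
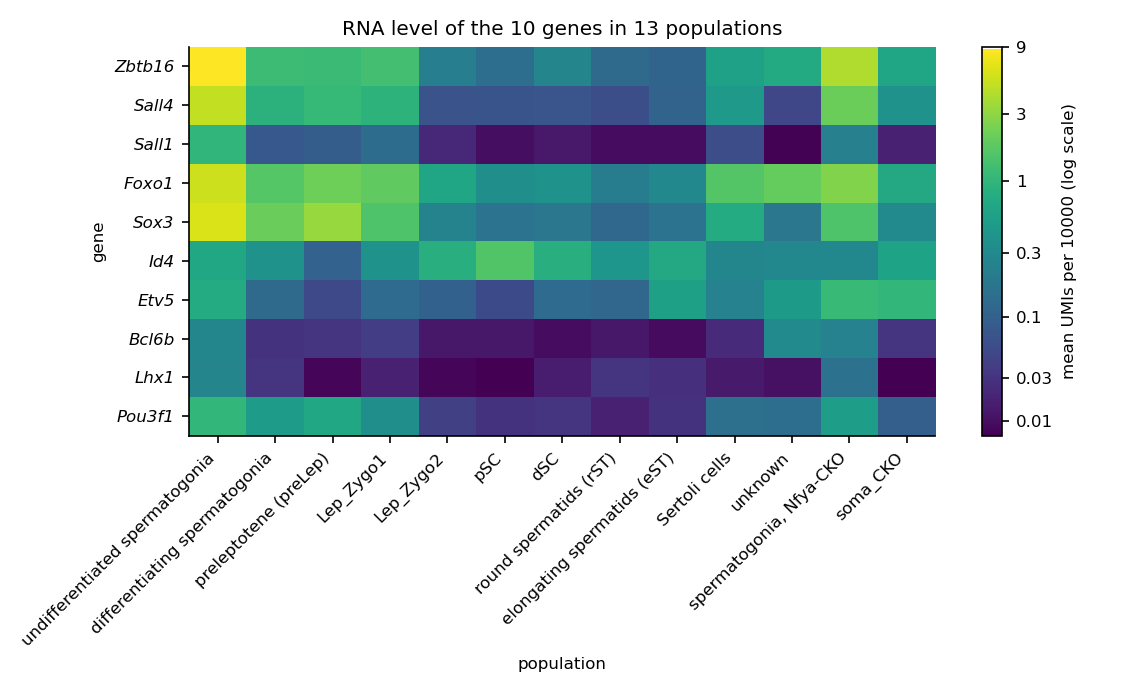
RNA level (mean UMIs per 10000, colour on a log scale) of the 10 genes (rows) in the 13 populations (columns). Control undifferentiated SpG are the brightest column for 7 genes, whereas Id4 was brightest in pachytene spermatocytes (pSC, 1.57) and Etv5 in CKO SpG (1.11).

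Zbtb16, Sall4 and Sall1 were high in a single control population. Zbtb16 was at 8.75 in undifferentiated SpG, 1.20 in differentiating SpG, 1.15 in preleptotene cells and 1.32 in the earlier of 2 leptotene-zygotene populations, and between 0.112 and 0.267 in all later germ cells. Sall4 had the same shape, with 4.88, 0.907, 1.09 and 0.925 in these 4 populations and at most 0.108 later. Sall1 was at 1.01 in undifferentiated SpG, 0.0793 in differentiating SpG, 0.0922 in preleptotene cells and 0.135 in the earlier leptotene-zygotene population, and at most 0.0224 later. All 3 genes thus had intermediate levels up to the earlier leptotene-zygotene population and low levels in every later germ cell population. That earlier population held 5705 nuclei and shared barcodes with undifferentiated SpG in 522 pairings, with a median of 701 against 18143 UMIs. The part of these nuclei in its levels, for these and the other members, was not tested.

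Foxo1 and Sox3 stayed higher after the undifferentiated state. Foxo1 was at 5.35 in undifferentiated SpG, 1.66 in differentiating SpG, 2.18 in preleptotene cells and 1.84 in the earlier leptotene-zygotene population, and its lowest value was 0.217 in round spermatids. It was also at 1.62 in Sertoli cells. Sox3 was at 6.17, 2.04, 3.31 and 1.51 in the same 4 germ cell populations, so that its second highest population was preleptotene. Pou3f1 also had preleptotene cells second, with 1.03 in undifferentiated SpG, 0.502 in differentiating SpG and 0.677 in preleptotene cells.

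Among control germ cells Lhx1 and Bcl6b stood out in undifferentiated SpG, and Etv5 was highest there with elongating spermatids not far below. Lhx1 was at 0.270 in undifferentiated SpG and 0.0315 in differentiating SpG, and at most 0.0318 in any later germ cell population. Bcl6b was at 0.278 in undifferentiated and 0.0294 in differentiating SpG, and at most 0.0393 later. Its highest value, 0.307, was in the 99 nuclei of the population named unknown, where the 3-UMI level was 0.0640. Etv5 was at 0.760 in undifferentiated and 0.129 in differentiating SpG, and at 0.568 in elongating spermatids.

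Id4 had another shape. It was at 0.682 in undifferentiated SpG, 0.382 in differentiating SpG and 0.105 in preleptotene cells, its lowest population, and then at 0.842 in the later leptotene-zygotene population, 1.57 in pachytene and 0.823 in diplotene spermatocytes. Undifferentiated SpG were its 5th highest population and CKO SpG its 10th. Over the 13 populations the Pearson correlation of Id4 with each of the other 9 genes, on log2(value + 0.1), was between -0.55 and -0.02. The 28 pairs among the 8 genes other than Id4 and Etv5 had correlations of 0.40 to 0.97 with a median of 0.83, and Etv5 had 0.12 to 0.63 with these 8. The populations share libraries and depth, and these correlations are descriptions.

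The first comparison asks how the genes differ between the undifferentiated and the differentiating SpG of control testes. All 10 genes were lower in differentiating SpG. Of the 9 above the filter, 9 were lower by any amount, against 43.1% of all genes tested, and 7 were at least 2-fold lower, against 6.28%. No member was at least 2-fold higher, against 9.57% of genes. Because the members were chosen by name for the undifferentiated state and populations were named by marker genes, these counts too may be set in part beforehand. The median ratio of the 9 was 0.323 and that of all 15250 genes was 1.07. Each of the 9 also reached the filter without undifferentiated SpG, with Sall1 (mean of 0.0577) and Bcl6b (0.0642) nearest to it.

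Zbtb16 was at 0.147 of its undifferentiated level with the pseudocount, Sall1 at 0.162, Sall4 at 0.202 and Etv5 at 0.266. Foxo1 was at 0.323, Sox3 at 0.341 and Bcl6b at 0.342. Pou3f1 at 0.532 and Id4 at 0.616 did not reach 2-fold. Lhx1, below the filter, was at 0.355. When the 143 nuclei with shared barcodes were given the mean CKO profile and taken away, Zbtb16 was at 0.0862 and Etv5 at 0.116, with Etv5 and Bcl6b left at 0 in differentiating SpG. The shared nuclei would bring 0.171 UMIs per 10000 of Etv5, more than the 0.129 deposited, so that they cannot all have held the mean CKO level. The number of members at least 2-fold lower was again 7, while that over all genes went from 958 to 1357 of 15250.

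Spermatid RNA moved with this comparison. The summed level of 10 spermatid genes was 15.3 in differentiating SpG and 1.13 in undifferentiated SpG, and all 10 were higher in differentiating SpG, with the protamine gene Prm1 at 3.94 against 0.155. In elongating spermatids the sum was 145. The 10 spermatocyte genes were all higher too, with sums of 22.7 and 10.4. From pachytene onwards the members were at most 1.57. The source of this spermatid and spermatocyte RNA and its part in the member ratios were not tested.

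The second comparison asks whether SpG of the library labelled Nfya-CKO hold the same levels as control undifferentiated SpG. Of the 10 genes, 9 were lower in CKO SpG and Etv5 was higher. Of the 9 above the filter, 6 were at least 2-fold lower, against 3.08% of all genes tested, and none was at least 2-fold higher, against 4.09%. With a pseudocount of 0.5 the 6 became 3 (95 of the 15250 genes tested), and against undifferentiated and differentiating SpG together they became 2 (850 genes), with Etv5 then at least 2-fold higher, as were 464 genes. By any amount, 8 of the 9 were lower, against 49.1% of genes. The median ratio was 0.499 for the 9 genes and 1.01 for all genes tested.

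Sox3 and Sall1 had the lowest ratios, and their order depends on the pseudocount. Sox3 was at 1.54 in CKO SpG against 6.17 in undifferentiated SpG, or 0.261, and Sall1 at 0.237 against 1.01, or 0.305. Without a pseudocount the ratios were 0.249 for Sox3 and 0.236 for Sall1. Sall4 was at 2.08 against 4.88, or 0.438. Zbtb16 was at 4.15 against 8.75, or 0.480. Foxo1, with 2.62 against 5.35, and Id4, with 0.290 against 0.682, lay at the 2-fold limit, with ratios of 0.499 and 0.4995. Both are called by a narrow margin.

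Of the GDNF-responsive genes, Etv5 was above its undifferentiated level, and Bcl6b, Lhx1 and Pou3f1 were below theirs. Etv5 was at 1.11 in CKO SpG against 0.760 in undifferentiated SpG, a ratio of 1.41. Bcl6b was at 0.252 against 0.278, or 0.930. Lhx1 was at 0.159 against 0.270, or 0.699. Pou3f1 was at 0.538 against 1.03, or 0.564. Etv5, Bcl6b and Pou3f1 did not reach 2-fold lower (3.08% of all genes tested) or higher (4.09%), and Lhx1 was under the filter. Zbtb16, Sall4, Sall1, Foxo1, Sox3 and Id4 were at least 2-fold lower as deposited. Of these, Zbtb16, Sall4 and Foxo1 fell within 2-fold once a share of the soma_CKO profile was taken away, as given below.

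**Figure D2:**
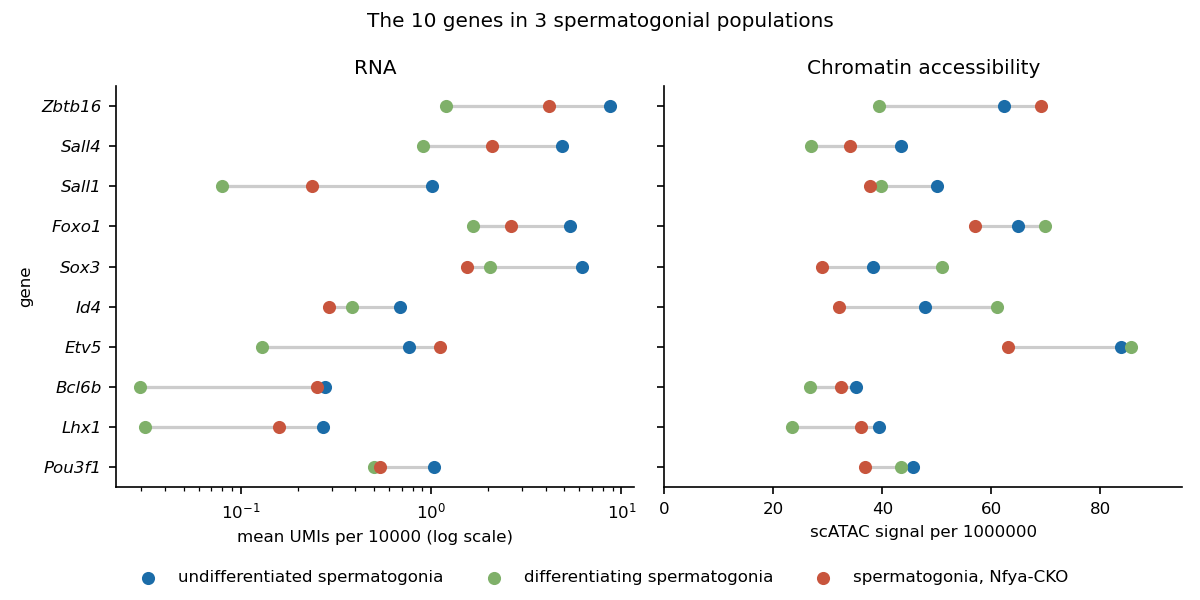
RNA level (left, mean UMIs per 10000, log axis) and scATAC signal (right, per 1000000) of the 10 genes in control undifferentiated SpG (blue), control differentiating SpG (green) and CKO SpG (red), 1 pooled value each. In RNA the CKO value of 7 genes lies between the other 2, that of Sox3 and Id4 is the lowest and that of Etv5 the highest.

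RNA of Leydig cells, the steroid-making cells between the tubules, moved with this comparison. The summed level of 8 Leydig genes was 51.8 in CKO SpG, 0.346 in undifferentiated SpG, 1.51 in differentiating SpG and 230 in the somatic population of which 78.8% came from the same library (soma_CKO). All 8 genes were higher in CKO than in undifferentiated SpG. The hormone gene Insl3 was at 39.8 against 0.0640, and Cyp17a1 at 7.39 against 0.0207. The 8 genes stood at 16.4% to 24.6% of their soma_CKO level, with a median of 22.6%. In scATAC signal, 2 of the 8 genes had a ratio of CKO to undifferentiated SpG of 0.8 or less, near the 22.5% of all genes, and 1 had at least its inverse, against 20.6%. Their median ratio was 0.975 against 0.967 for all genes.

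Markers of other somatic cells were also higher. The sum of 12 Sertoli genes was 30.8 in CKO and 7.72 in undifferentiated SpG, 9 of the 12 were higher, and Clu alone was at 22.8 against 2.50. The sum of 10 macrophage genes was 1.43 against 0.238, with all 10 higher, and that of 11 peritubular and endothelial genes 2.71 against 1.002, with 10 higher. Over these 4 lists and the 2 populations, C1qa in undifferentiated SpG was the only value at 0. The 10 spermatid genes were lower, with sums of 0.337 and 1.13. The part of these lists in the member ratios was not tested.

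In soma_CKO itself Etv5 was at 1.03, close to its CKO SpG level, whereas Sall1 was at 0.0181, Lhx1 at 0.00569, Bcl6b at 0.0308 and Zbtb16 at 0.645. As an alternative chosen after seeing the data, the soma_CKO profile was taken away from CKO SpG by the 22.4% that Insl3 gives. The rest was rescaled to 10000. That share cannot hold for every gene. The 10 spermatid genes summed to 7.40 in soma_CKO and 0.337 in CKO SpG, which is below 22.4% of the soma_CKO sum. After this step Sox3 was at 0.315 of its undifferentiated level, Sall1 at 0.359 and Id4 at 0.378, each at least 2-fold lower. Id4, which was highest in pachytene cells, was at 0.611 in soma_CKO, so its value after this step may be too low. Sall4 was at 0.530, Zbtb16 at 0.588 and Foxo1 at 0.594, within 2-fold. Etv5 stayed at 1.42 and Bcl6b moved from 0.930 to 1.09. The count of genes at least 2-fold lower was thus 6 as deposited and 3 after this step, while that over all genes tested went from 469 to 1076 of 15250.

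**Figure D3:**
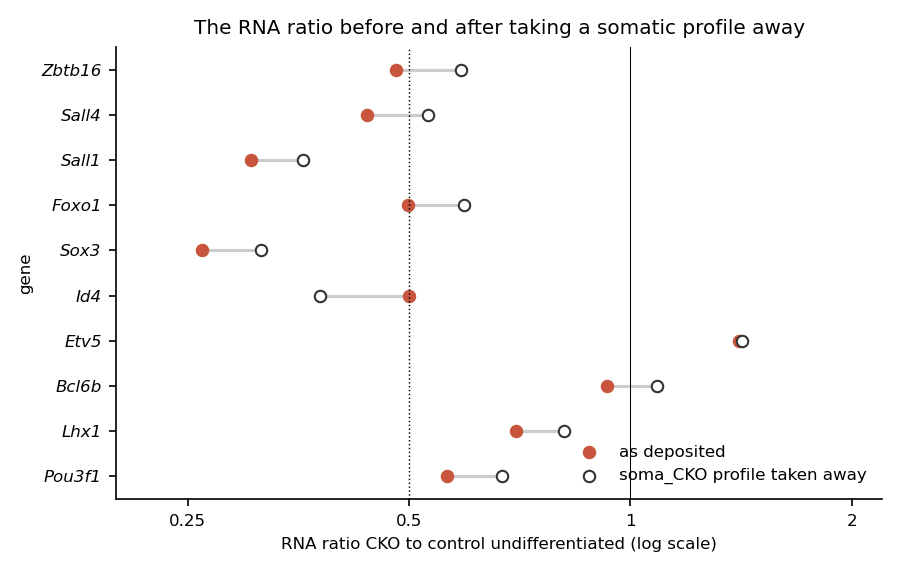
Ratio of CKO SpG to control undifferentiated SpG in RNA (log axis, 0.1 added to both) for the 10 genes, as deposited (red) and after taking 22.4% of the soma_CKO profile away (open). The dotted line is the 2-fold limit, past which 6 genes lie as deposited and 3 afterwards.

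CKO SpG were also set beside differentiating SpG, most of which came from mice of the same age. Of the 9 genes above the filter, 4 were at least 2-fold higher in CKO SpG, against 6.86% of all genes tested, and none was at least 2-fold lower, against 10.5%. Etv5 was at 5.29 times the differentiating level with the pseudocount, Zbtb16 at 3.26, Bcl6b at 2.72 and Sall4 at 2.17. Lhx1 was at 1.97, Sall1 at 1.88, Foxo1 at 1.55 and Pou3f1 at 1.06. Sox3 at 0.768 and Id4 at 0.811 were below 1. With the shared nuclei taken away 5 genes were at least 2-fold higher, Sall1 being the added one, while the count over all genes went from 1046 to 1693 of 15250. The log2 ratio of Etv5 then went from 2.40 to 3.60 and that of Zbtb16 from 1.71 to 2.48.

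For 7 genes the CKO level lay between the 2 control levels, with undifferentiated SpG the highest. With the filter applied these were 6 of 9 genes, against 15.5% of the genes tested with that same order, and Lhx1. Sox3 and Id4 were below both controls and Etv5 above both. The 3 comparisons share populations, so these positions follow in part from the values given above.

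The genes around the members behaved unevenly. Of 32 other genes of the undifferentiated state 26 were tested. In differentiating SpG 13 were at least 2-fold lower (6.28% of all genes) and 2 higher (9.57%). Their median ratio there was 0.546 against 1.07 for all genes. The median ratio of these 26 genes in CKO SpG was 0.905 against 1.01 for all genes. Of them 1 was at least 2-fold lower than in undifferentiated SpG, near the 3.08% of all genes, and none was higher (4.09%). That gene was Dusp6, a phosphatase of ERK, at 0.383 against 1.01. Dazl, a germ cell RNA-binding protein gene, had the next lowest ratio at 0.520, and Cdh1 (1.94) and Uchl1 (1.86) the highest. The GDNF receptor genes Gfra1 and Ret were at 1.20 and 1.36 in CKO SpG, against 1.08 and 2.30 in undifferentiated and 0.198 and 0.119 in differentiating SpG.

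Of 20 genes of GDNF, FGF and PI3K-AKT signalling 17 were tested. In differentiating SpG 8 were at least 2-fold lower (6.28% of all genes were), with a median ratio of 0.524 against 1.07 for all genes. In CKO SpG 3 were (3.08% of all genes), with a median of 0.853 against 1.01. The 3 were the kinase genes Akt2 (0.411) and Src (0.426) and, as above, Dusp6 (0.436). None was higher (4.09% of all genes), and the highest ratios were those of Rps6kb1, the S6 kinase gene (1.31), and Fgfr2 (1.19). This list shares Gfra1, Ret, Sdc4 and Dusp6 with that of the undifferentiated state.

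Of 17 differentiation genes in the matrix 16 were tested, and their median ratio in CKO SpG was 1.03, with 2 at least 2-fold lower (3.08% of all genes) and 1 higher (4.09%). Ccnd2, a D-type cyclin gene, was at 4.67 in CKO, 10.8 in undifferentiated and 0.579 in differentiating SpG, so that in these data it was not higher with differentiation. Stra8, the retinoic acid target that drives Cre here, was at 0.969 in CKO, 2.05 in undifferentiated and 2.59 in differentiating SpG. Crabp1, a retinoic acid-binding protein gene, was at 3.33 against 0.794 in undifferentiated SpG and was the 1 gene at least 2-fold higher. Kit, the receptor that marks differentiating SpG, was at 1.08 in CKO, 0.548 in undifferentiated and 1.56 in differentiating SpG. In differentiating SpG 3 of the 16 genes were at least 2-fold higher (9.57% of all genes) and 3 lower (6.28%).

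Of 22 relatives of the members in the same families 15 were tested, and none was at least 2-fold lower (3.08% of all genes) or higher (4.09%) in CKO SpG, with a median ratio of 1.07. The lowest ratios were those of Zbtb20 (0.556) and Bcl6 (0.623) and the highest those of Sall2 (1.56) and Etv4 (1.498). In differentiating SpG 5 of the 15 were at least 2-fold lower (6.28% of all genes), with a median ratio of 0.781. Etv4, an ETS relative of Etv5, was at 0.570 in CKO SpG, 0.348 in undifferentiated and 0.0539 in differentiating SpG, the same order as Etv5, and at 0.0512 in soma_CKO. Etv1, another ETS relative, was at 0.0687, 0.0569 and 0.0287 in the same SpG populations and at 0.220 in soma_CKO, above its SpG levels. Sall3, a relative of Sall1 and Sall4, was at 0.264, 0.371 and 0.0535 in these 3 SpG populations.

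Chromatin accessibility at the members was read from the scATAC matrix, scaled to 1000000 per population. The study's methods describe a window around the start site for promoter accessibility taken from coverage tracks, and do not say whether the deposited matrix, on another scale, used it. In undifferentiated SpG the signal per 1000000 was 62.4 at Zbtb16, 43.4 at Sall4, 50.02 at Sall1, 64.9 at Foxo1, 38.3 at Sox3, 47.9 at Id4, 83.8 at Etv5, 35.2 at Bcl6b, 39.4 at Lhx1 and 45.7 at Pou3f1. The range over populations was wide at Zbtb16, from 7.12 in elongating spermatids to 69.1 in CKO SpG, and at Sall4, from 4.22 in soma_CKO to 43.4. The highest value was 10.3 times the lowest at Sall4, 5.83 times at Sall1, 5.70 times at Lhx1, 2.52 times at Bcl6b, 1.97 times at Id4 and 1.60 times at Etv5. Without mitochondrial genes these became 6.70, 3.48, 3.20, 1.56, 1.74 and 1.92 times, so that Bcl6b and not Etv5 had the narrowest range, while Zbtb16 went from 9.71 to 10.1 times. As deposited, the Pearson correlation of RNA with scATAC signal over the 13 populations was 0.91 for Pou3f1, 0.84 for Sall4, 0.72 for Foxo1 and 0.71 for Zbtb16, and -0.29 for Id4 and -0.26 for Etv5, as descriptions. As deposited, the signal of Sall1, Foxo1, Sox3, Lhx1 and Pou3f1 was highest in preleptotene cells, whereas the RNA of each was higher in undifferentiated SpG. Mitochondrial genes took 31.25% of the signal in preleptotene cells, the lowest share of the 13 populations, which raises all nuclear genes there. Without mitochondrial genes Sox3 alone was highest in preleptotene cells, and Sall1, Foxo1 and Pou3f1 were highest in undifferentiated and Lhx1 in CKO SpG. The share of all genes highest in preleptotene cells was not counted, so these positions are not read as particular to the members.

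Mitochondrial genes took 40.6% of the scATAC signal in undifferentiated, 35.0% in differentiating and 46.0% in CKO SpG, which lowers all nuclear genes in proportion. Leaving them out moved the median log2 ratio of all genes by 0.12 in the comparison of CKO with undifferentiated SpG and by -0.11 in that of differentiating with undifferentiated SpG. The comparisons of SpG are therefore given under both scalings. CKO nuclei also had a lower mean TSS enrichment, the authors' ratio of signal at gene starts to its surroundings, with 8.00 against 12.7 in undifferentiated and 15.1 in differentiating SpG. Its part in the ratios was not tested.

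In differentiating SpG, 4 of the 10 genes were lower than in undifferentiated SpG, with a ratio of 0.8 or less, against 25.9% of the 27495 genes tested, and 2 were higher, with at least the inverse of that ratio, against 33.8%. Lhx1 had a ratio of 0.604, Sall4 0.630, Zbtb16 0.638 and Bcl6b 0.767. Sox3, at 51.0 against 38.3, and Id4, at 61.1 against 47.9, were higher although their RNA was lower. Without mitochondrial genes Sall1 joined the lower genes, so that 5 were lower (against 31.6% of genes) and none was past the upper limit (against 25.8%), with Sox3 at 1.21 and Id4 at 1.16. Foxo1 and Etv5 changed sides of 1 between the scalings, from 1.075 to 0.982 and from 1.02 to 0.932.

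In CKO SpG, 5 of the 10 genes had a ratio to undifferentiated SpG of 0.8 or less, against 22.5% of genes, and none was past the upper limit, against 20.6%. Id4 was at 32.1 against 47.9 (0.677), Etv5 at 63.1 against 83.8 (0.756), Sall1 at 37.7 against 50.02 (0.759), Sox3 at 29.0 against 38.3 (0.763) and Sall4 at 34.0 against 43.4 (0.789). Zbtb16 was the only member with a ratio above 1, at 69.1 against 62.4 (1.11), while its RNA was at 0.480. Etv5 was the reverse, with less signal and more RNA. Without mitochondrial genes Id4 alone stayed at or under 0.8, at 0.741, so that the count was 1 of 10 against 14.1% of genes, and no member was past the upper limit, against 29.7%. Bcl6b and Lhx1 then moved from 0.922 and 0.918 to 1.01 each. Both RNA and scATAC signal were lower by any amount in CKO SpG for 8 of the 10 genes as deposited and for 6 without mitochondrial genes. Of the 9 above the RNA filter these were 7, against 35.3% of genes, and 6, against 28.6%.

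**Figure D4:**
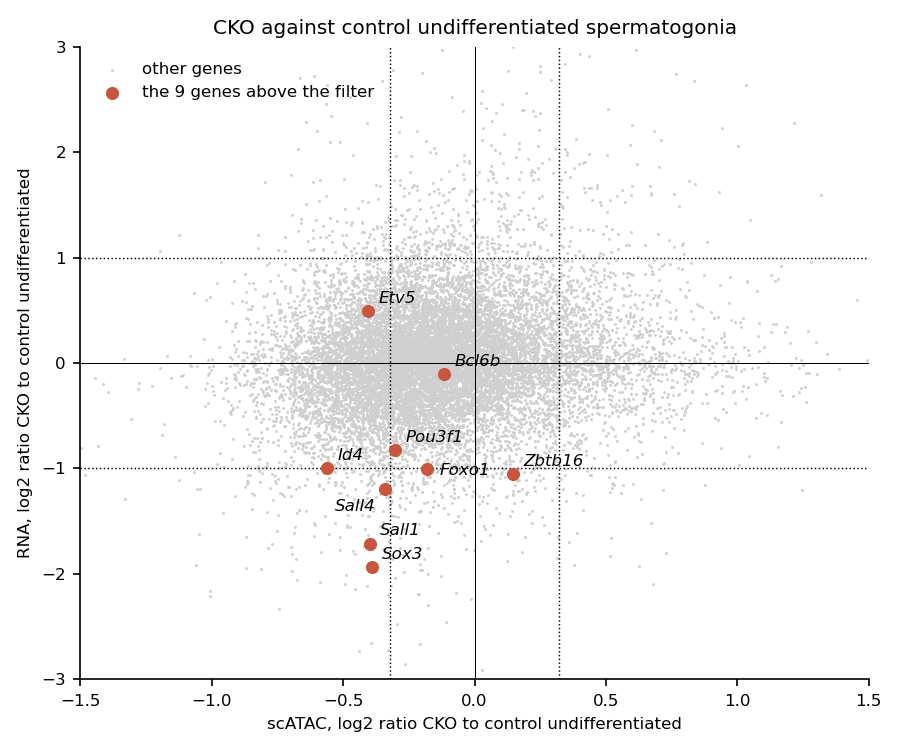
Log2 ratio of CKO to control undifferentiated SpG in scATAC signal (horizontal) and RNA (vertical) for the 9 members above the RNA filter (red) and all other genes tested in both (grey, within the axis limits). Dotted lines mark a scATAC ratio of 0.8 and its inverse and an RNA ratio of 2-fold, and Zbtb16 lies right of 0 with lower RNA, and Etv5 lies above 0 with lower scATAC signal.

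The scATAC ratio was also set beside the NF-Y box letters of the promoter windows. Over all tested genes with a window, taking the window with the most matches, the median ratio of CKO to undifferentiated SpG was 0.970 for 10322 genes without a match, 0.953 for 4849 genes with 1, 0.870 for 1726 genes with 2 and 0.750 for 774 genes with 3 or more. The share of genes with a ratio of 0.8 or less was 19.7%, 22.5%, 36.9% and 59.7% in this order. The median GC content of these windows was 54.7% to 57.7%, and among windows of 55% to 70% GC the shares were 21.7%, 28.6%, 47.8% and 70.9%. Without mitochondrial genes the medians were 1.06, 1.04, 0.946 and 0.820. The part of the lower TSS enrichment of CKO nuclei and of the number of windows per gene in this order was not tested. Among the members, Foxo1 with 3 matches had a ratio of 0.881, Etv5 with 3 had 0.756, Id4 with 2 had 0.677, and Lhx1 and Sall1 with 1 had 0.918 and 0.759. Id4 and Sall1 were thus below the lower quartile of their classes (0.747 and 0.813), and Foxo1, Etv5 and Lhx1 lay within the quartiles, which are over windows of any GC content. The Id4 and Etv5 windows had 73.3% and 74.0% GC, above the band of 55% to 70%, where the median ratio was 0.812 for 2 matches and 0.720 for 3 or more. In RNA the median ratios of these classes were 1.03, 1.01, 0.952 and 0.884, and the shares of genes at least 2-fold lower were 1.92%, 2.47%, 4.52% and 7.51%.

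**Figure D5:**
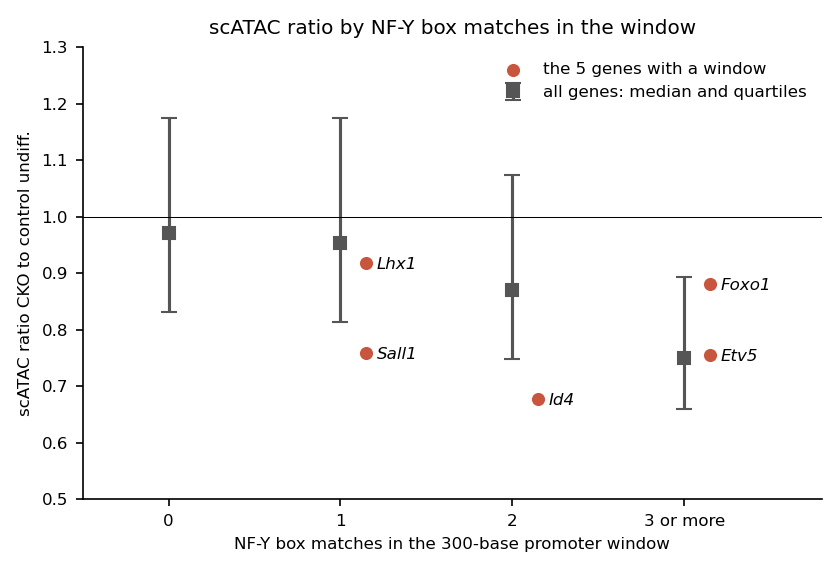
Ratio of CKO to control undifferentiated SpG in scATAC signal by the number of NF-Y box matches in the promoter window, for all genes with a window (squares are medians, bars the quartiles) and the 5 members with a window (red). The medians of all genes go from 0.970 without a match to 0.750 with 3 or more, and Id4 and Sall1 lie under the lower quartile of their classes.

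The 10 genes whose RNA pattern over the 13 populations was most like the mean pattern of the members, among 10850 other genes with a highest value of at least 0.5, were Prtg, Garem2, Dctd, Ube4b, Tmtc4, Rcan3, pi-Rcan3.1, Sbk1, Piwil4 and Mcam, with Pearson correlations of 0.99 to 0.95 on log2(value + 0.1). Rcan3 and pi-Rcan3.1 have the same value in every population and count as 1 measurement. Prtg was at 1.99 in undifferentiated, 0.371 in differentiating and 1.11 in CKO SpG. Piwil4, which encodes a PIWI protein of the male germ line, was at 0.867, 0.0862 and 0.347. Rcan3 (1.62 against 1.45) and Mcam (2.58 against 2.28) were higher in CKO than in undifferentiated SpG. The list depends on the measure, since rank correlation gave none of the same 10 genes and the 9 control germ cell populations alone gave 3 of them.

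SpG of the 3 names made up 10.6% of the nuclei at 11 dpp (exact Clopper-Pearson 95% interval 9.90 to 11.4), 7.31% at 17 dpp (6.50 to 8.19), 2.15% at 25 dpp (1.94 to 2.37), 7.38% in Cre/+ (6.92 to 7.86) and 9.55% in the library labelled Nfya-CKO (8.76 to 10.4). The intervals cover counting error only. Among nuclei with at least 1000 genes the last share was 18.6%, above the 12.3% at 11 dpp.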

How the data were processed

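The authors prepared nuclei from testes, 1 library per age or genotype and assay, and aligned reads to mm10 (GRCm38) with STAR 2.7.10b for RNA and BWA 0.7.12 for scATAC-seq, per their methods and processing notes. Nuclei were filtered and named by the authors with Seurat 5.2.1 (at least 500 genes, under 5% mitochondrial UMIs) and ArchR 1.0.3 (1000 fragments, TSS score 4), with doublets removed before deposit. The authors deposited cell tables with UMI, gene and fragment counts per nucleus, not normalized, the percent of mitochondrial UMIs, and TSS enrichment as a ratio. They deposited 2 matrices of other values on a natural log scale. Turned back as exp(value) - 1, each column sums to 10000. In every RNA column but those of pachytene and diplotene cells the lowest value above 0 equals 1 UMI in the deepest nucleus of that population divided by its nuclei, so RNA values were read as means over nuclei of UMIs per 10000. scATAC values were rescaled to 1000000 per population. 14 columns of per-cell values were not used. Depth behind a single value is unknown beyond this.

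Log2 ratios used a pseudocount of 0.1 (RNA) or 1 (scATAC), and genes with a mean over the 13 populations of at least 0.05 or 1; mitochondrial genes were not called in scATAC but stay in its totals unless stated. Calls were 2-fold for RNA and a ratio of 0.8 or its inverse for scATAC. Named genes were the 10 members, the 2 largest changes in each direction of each list with its defining markers, NF-Y subunits and the 10 most alike genes. The members and all lists were chosen with earlier results of these data known. Calculations ran under scipy 1.17.1, pandas 2.3.3 and numpy 2.4.6 (Python 3.11.15; figures in matplotlib 3.10.9), and the ratio and correlation steps were tested on simulated data.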

Additional observations from a re-analysis of the deposited data

How the results depend on the processing

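The count of members with RNA at least 2-fold lower in CKO than in undifferentiated SpG (6, with 469 of all 15250 genes) was 3 with a pseudocount of 0.5 (95 of all genes), 2 at 3-fold (100), 2 against undifferentiated and differentiating SpG together (850, with Etv5 as 1 gene higher, and 464 of all), and 3 with the soma_CKO profile taken away by Insl3 (1076) or by the median of the 8 Leydig genes (1082). The 4 genes higher in CKO than in differentiating SpG (1046 of all genes) became 2 with a pseudocount of 0.5 (166) and 2 at 3-fold (243). In scATAC, the 5 genes lower in CKO SpG (6193 of all 27495 genes) became 1 without mitochondrial genes (3880) and 0 at 1.5-fold (1684), with 1 higher at 1.1-fold (9155), and the 2 genes higher in differentiating SpG (9284 of all genes) became 0 without mitochondrial genes (7106), 0 at 1.5-fold (3958) and 0 with the median of all genes set to 0 (6685). Keeping only nuclei with at least 1000 genes gave SpG shares of 12.3%, 10.6%, 3.15%, 10.9% and 18.6% in the order of the libraries above. Of the 10 most alike genes 0 were shared under rank correlation and 3 over the control germ cells. No paired analysis was possible because each group holds 1 library. Low levels limit the ratios of Sall1, Bcl6b and Etv5, which moved with the pseudocount. With 0.5 in place of 0.1, the log2 ratio of differentiating to undifferentiated SpG went from -2.63 to -1.38 for Sall1, from -1.55 to -0.56 for Bcl6b and from -1.91 to -1.003 for Etv5.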
